A study of Mus musculus with 130 samples.

Results

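The genes described here encode the machinery that starts transcription of protein-coding genes: RNA polymerase II, the Mediator complex and the general transcription factors, measured in single mouse embryos. They were taken by symbol from the authors' deposited table as every gene whose name begins with Polr2, Med and a digit, Gtf2, or Taf and a digit. This gave 86 genes of 36134. The symbols cover 13 genes of RNA polymerase II, 30 of Mediator, 3 of TFIIA, 1 of TFIIB, 2 of TFIIE, 2 of TFIIF, 5 of TFIIH and 18 TBP-associated factors of TFIID. They also take in 2 factors of the SAGA coactivator, 4 of RNA polymerase I, 3 genes of the TFII-I family and 3 pseudogenes, which are described apart.

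The SR1848 group held 80 B6129F1 embryos cultured in KSOM medium with 10 µM SR1848, a compound used as an inhibitor of the nuclear receptor Nr5a2, also called LRH-1. The DMSO group held 50 B6129F1 embryos cultured with 0.1% DMSO, the solvent. Both groups were collected as zygotes 5 h post fertilization, treated from 6 h, kept in wet chambers without an oil overlay and sequenced at the 2-cell stage as 1 library per embryo, by Smart-seq2 (full-length cDNA) primed with oligo-dT. The design text lists 56 control embryos, of which 6 were not analysed here. The sources used here do not tie embryos to a female, drop or plate, so p-values measure the spread between these embryos, which may be partly technical. A difference in handling between the groups cannot be told apart from SR1848.

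RNA polymerase II is built from a core in which some subunits belong to it alone and others are shared with RNA polymerases I and III. The enzyme cannot find a promoter by itself. TFIID (TBP with its TAFs) and TFIIA mark the promoter, TFIIB and TFIIF bring in the polymerase, and TFIIE and TFIIH open the DNA. Mediator, whose head and middle touch the polymerase, whose tail touches activators and whose kinase module comes and goes, passes on the signal. In mouse the 2-cell stage is when the embryo begins to transcribe its own genome in earnest, while messages laid down in the oocyte still make up much of its RNA.

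Most of these genes had lower messages in SR1848 embryos. With SR1848, 53 of the 82 that could be tested were lower and 18 higher by edgeR's quasi-likelihood test (adjusted p under 0.05), leaving 11 without a call. Of all 13222 genes tested, 82.1% were called, 36.5% lower and 45.6% higher. The fall was at least 2-fold for 32 of the 82 (25.8% of all genes tested) and the rise at least 2-fold for 8 (28.2% of all genes tested). Their median log2 fold change was -0.70, and that of all genes tested was 0.24. Summed per length, the 86 genes made up 8925 ± 1693 transcripts per 1000000 after correction for length (TPM) in SR1848 embryos and 12282 ± 1023 TPM in DMSO embryos (SD, n = 80 and 50). Gtf2h2, Med29, Polr2k, Med19 and Polr2e were lower in all 80 SR1848 embryos than in any DMSO embryo, a separation found in 1.69% of all genes tested. None of the 82 separated the other way, as 0.0151% of all genes did.

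**Figure D1:**
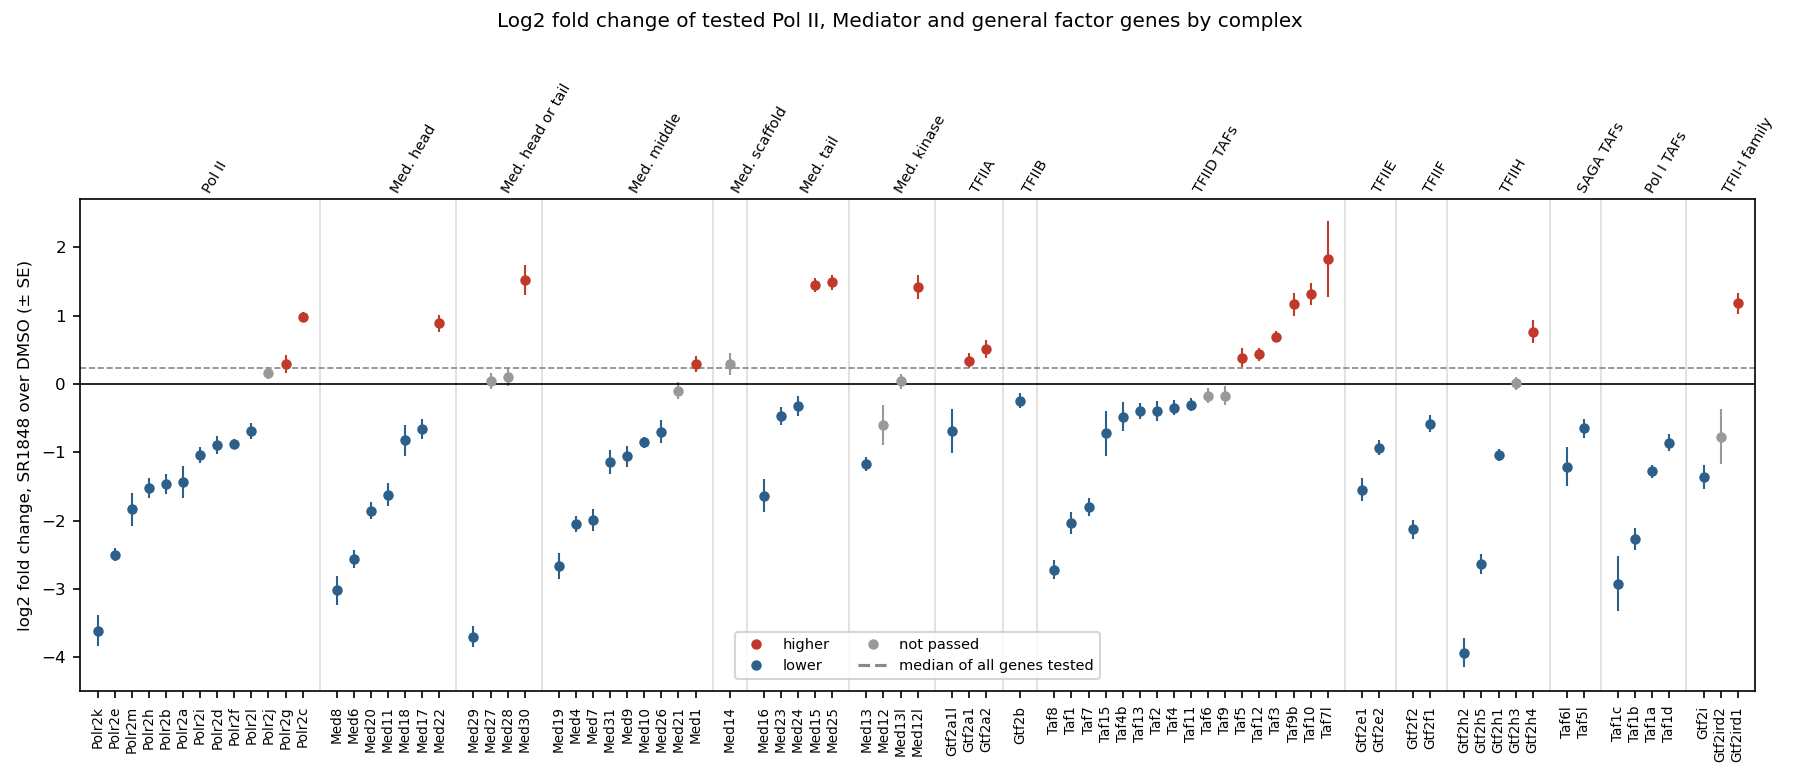
Log2 fold change (SR1848 over DMSO, y axis) of each of the 82 tested genes, grouped along the x axis by complex; bars are standard errors, colours give the edgeR call, and the dashed line is the median of all genes tested, 0.24. Gtf2h2 is the lowest point at -3.94 and Taf7l the highest at 1.83; 11 of the 18 points in red turned negative when libraries were scaled to oocyte transcripts or when non-coding transcripts or all but the most abundant transcript were left out.

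These values are relative to the library. Total estimated counts per embryo lay between 2730852 and 7824458 with SR1848 and between 3173683 and 8438537 with DMSO. Messages stored in the oocyte took a larger part of the SR1848 libraries: 46 of 55 tested genes of an oocyte list were higher and 2 lower, and the list summed to between 20720 and 95161 counts per 1000000 (CPM) with SR1848 and between 12815 and 39564 CPM with DMSO. When libraries were scaled to that list, the median of all genes moved to -0.78, and 4 of the 82 were higher and 71 lower, against 14.3% and 59.5% of all genes. Under that scaling 10 of the 55 oocyte genes were higher and 29 lower, since it holds their sum level and not each message. Values under oocyte scaling therefore depend on the most abundant messages of the list. With scaling by relative log expression, upper quartiles or total counts, the median of all genes was 0.13, 0.46 and 0.05, and that of the 82 was -0.81, -0.49 and -0.87. Upper-quartile scaling called 24 of the 82 higher and 43 lower, and 6759 of all 13222 genes higher and 4261 lower. Each library is a whole embryo, so fewer cells and less RNA per cell cannot be told apart. Genes of the 2-cell stage were present in both groups, 20 of 25 higher and 5 lower with SR1848. Of 13 cumulus, 10 sperm and 8 blood cell markers, 3, 1 and 2 were abundant enough to test. Cumulus markers summed to between 13 and 316 CPM with SR1848 and between 31.8 and 131 CPM with DMSO, sperm markers to between 146 and 881 CPM with SR1848 and between 70.2 and 374 CPM with DMSO, and blood markers to between 59.5 and 676 CPM with SR1848 and between 6.21 and 136 CPM with DMSO. The sperm sum was nearly all Odf2 and the blood sum nearly all Hba-a1 and Hba-a2, while Smcp, Hbb-bt and Tyrobp were at 0 in every embryo and Prm1, Tnp1 and Ptprc averaged under 1 CPM. The part of these lists in the results was not tested. Nr5a2 itself lay between 0 and 35.3 CPM with SR1848 and between 51.8 and 179.6 CPM with DMSO.

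The promoters of these genes show which sequence elements lie at their annotated starts. Promoters of 71 of the 82 tested genes, and of 9858 of the 13222 genes tested, were read from RefSeq on GRCm38.p6, each 300 bases long with 250 before the annotated start and 50 after it. Shown 5′ to 3′ on the gene's strand are 4 genes of the clearest falls and 2 that were higher, Polr2c and Med15. Med25, also higher (log2 fold change 1.49), is not shown, and its window had no match to any element searched. Polr2k, also among the clearest falls, has no promoter among the 71. Capitals mark matches on either strand to the core of ETS-factor sites (CCGGAAG), to the CCAAT box, to the GC box, whose letters are GGGCGG, and to the TATA box, searched here as TATAAA. In GRCm38.p6 coordinates the windows are chr13:100492345-100492644 (minus strand) for Gtf2h2, chr7:28392641-28392940 (minus strand) for Med29, chr2:84678152-84678451 (plus strand) for Med19, chr10:80039610-80039909 (minus strand) for Polr2e, chr8:94857200-94857499 (plus strand) for Polr2c and chr16:17722898-17723197 (minus strand) for Med15.
Gtf2h2: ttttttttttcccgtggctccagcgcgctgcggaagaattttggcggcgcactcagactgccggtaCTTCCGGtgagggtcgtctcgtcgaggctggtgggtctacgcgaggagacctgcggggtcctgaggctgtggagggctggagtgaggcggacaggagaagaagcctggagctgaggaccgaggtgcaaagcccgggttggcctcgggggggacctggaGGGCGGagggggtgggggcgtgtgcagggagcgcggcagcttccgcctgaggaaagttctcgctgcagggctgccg
Med29: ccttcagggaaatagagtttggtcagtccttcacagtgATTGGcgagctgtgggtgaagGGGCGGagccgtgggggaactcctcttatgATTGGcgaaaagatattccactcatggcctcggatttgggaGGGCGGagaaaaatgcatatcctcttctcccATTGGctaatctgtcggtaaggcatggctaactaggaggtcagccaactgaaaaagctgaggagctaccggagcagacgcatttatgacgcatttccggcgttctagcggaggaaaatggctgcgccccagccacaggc
Med19: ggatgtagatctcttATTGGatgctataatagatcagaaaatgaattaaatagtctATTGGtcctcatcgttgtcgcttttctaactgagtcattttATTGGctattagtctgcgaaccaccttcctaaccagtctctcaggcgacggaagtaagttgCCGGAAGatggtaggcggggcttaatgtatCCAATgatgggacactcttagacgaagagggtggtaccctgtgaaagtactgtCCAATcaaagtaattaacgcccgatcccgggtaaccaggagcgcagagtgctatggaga
Polr2e: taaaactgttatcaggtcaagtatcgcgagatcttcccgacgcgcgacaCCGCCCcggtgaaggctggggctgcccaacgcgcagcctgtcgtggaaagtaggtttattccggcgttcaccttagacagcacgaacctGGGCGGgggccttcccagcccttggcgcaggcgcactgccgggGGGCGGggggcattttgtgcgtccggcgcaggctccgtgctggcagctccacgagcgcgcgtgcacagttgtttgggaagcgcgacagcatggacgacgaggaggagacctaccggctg
Polr2c: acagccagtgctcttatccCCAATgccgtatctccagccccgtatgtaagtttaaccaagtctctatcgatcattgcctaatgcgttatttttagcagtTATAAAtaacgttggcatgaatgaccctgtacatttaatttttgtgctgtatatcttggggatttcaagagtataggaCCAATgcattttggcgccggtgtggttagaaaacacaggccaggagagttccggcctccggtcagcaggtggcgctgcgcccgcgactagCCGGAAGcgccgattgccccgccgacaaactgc
Med15: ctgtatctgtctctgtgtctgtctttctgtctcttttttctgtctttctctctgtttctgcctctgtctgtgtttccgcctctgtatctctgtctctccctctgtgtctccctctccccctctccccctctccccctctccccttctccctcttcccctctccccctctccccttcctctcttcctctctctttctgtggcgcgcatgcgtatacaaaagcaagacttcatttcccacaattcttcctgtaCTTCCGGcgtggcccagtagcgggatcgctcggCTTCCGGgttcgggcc

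The RefSeq start is also the start of the most abundant GENCODE M21 transcript for Med19, Polr2c and Med15, and lies 18 bases from it for Med29, 136 bases for Polr2e and 167 bases for Gtf2h2. Among the 71, this distance was longest for Gtf2ird1 (79692 bases), Gtf2i (34895), Taf1a (19624), Med12 (11933) and Taf6l (2317). For these genes the window does not hold the start of the most abundant transcript. In the letters shown, Med29 has CCAAT and GC boxes, Med19 CCAAT boxes and an ETS core, Polr2e GC boxes alone, Gtf2h2 an ETS core and a GC box, Polr2c CCAAT boxes, an ETS core and TATAAA, and Med15 ETS cores alone. The ETS core stood in 32.4% of the 71 promoters and in 18.4% of the promoters of all genes tested, and TATAAA in 16.9% of the 71 and 7.79% of all. The YY1 core ATGGCGG stood in 15.5% of the 71 and 8.24% of all, the GC box in 69% of the 71 and 62% of all, and CCAAT in 35.2% of the 71 and 40.3% of all. AAGGTCA, the letters Nr5a2 is known to bind, were in none of the 71 and in 3.27% of all, and the palindromic NRF1 site was in none of the 71 and in 2.13% of all. Among the genes called lower the ETS core stood in 34.1% of 44 promoters and among those called higher in 31.3% of 16. The GC box stood in 75% of the 44 lower and 50% of the 16 higher. Shares of these motifs among all genes called lower or higher were not computed. All motifs were searched on both strands, and matches may overlap.

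RNA polymerase II split by subunit. Of its 13 genes 10 fell, Polr2c and Polr2g rose with the scaling used here but had log2 values of -0.0067 and -0.63 with oocyte scaling, and Polr2j did not pass. All 5 subunits shared with RNA polymerases I and III fell. Among all genes tested, 36.5% were lower and 45.6% higher. Polr2k, a small zinc-binding shared subunit, lay between 0 and 10.7 CPM (median 2.03) in SR1848 embryos and between 15.8 and 82.8 CPM (median 36.3) in DMSO embryos (log2 fold change -3.61, SE 0.23, edgeR adjusted p = 2.8e-31). No SR1848 embryo reached the lowest DMSO embryo, and 73 of 80 SR1848 embryos had any count. Polr2e, the shared subunit of the jaw (ENSMUSG00000004667, chromosome 10, 80035949 to 80039795, minus strand), lay between 13.5 and 85.4 CPM (median 37.9) in SR1848 embryos and between 93.5 and 381 CPM (median 231) in DMSO embryos (log2 fold change -2.50, SE 0.09, edgeR adjusted p = 1.1e-53). Its groups did not overlap either. Polr2h lay between 3.95 and 159 CPM (median 50) in SR1848 embryos and between 35.9 and 277 CPM (median 171) in DMSO embryos, with a log2 fold change of -1.53. Polr2f, which sits at the base of the clamp, lay between 34.7 and 233 CPM (median 139) in SR1848 embryos and between 162 and 381 CPM (median 254) in DMSO embryos (-0.88 on the log2 scale), and 60 of 80 SR1848 embryos were below every DMSO embryo. Polr2l, which joins the assembly platform, lay between 22.2 and 511 CPM (median 148) in SR1848 embryos and between 122 and 453 CPM (median 279.7) in DMSO embryos (log2 fold change -0.69). The groups overlapped for Polr2h, Polr2f and Polr2l.

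Of the 7 subunits of RNA polymerase II alone, 4 fell, 2 were higher (both negative under oocyte scaling) and 1 did not pass. The shares of all genes tested were 36.5% lower and 45.6% higher. Polr2a, the catalytic subunit whose tail of repeats is phosphorylated as transcription proceeds (chromosome 11, 69733997 to 69758637, minus strand), lay between 0 and 26.1 CPM (median 4.38) in SR1848 embryos and between 1.83 and 36.8 CPM (median 14.3) in DMSO embryos (log2 fold change -1.44, SE 0.23, edgeR adjusted p = 1.8e-08). Polr2b, which forms the active centre with it, lay between 8.04 and 585 CPM (median 91.8) in SR1848 embryos and between 116 and 574 CPM (median 323) in DMSO embryos (log2 fold change -1.47, SE 0.15, edgeR adjusted p = 7.6e-17). Both fell by between 2- and 3-fold, with overlap, and 47 of 80 SR1848 embryos lay below every DMSO embryo for Polr2b. Polr2c, which starts assembly of the enzyme (chromosome 8, 94857450 to 94873535, plus strand), lay between 738 and 3318 CPM (median 1531) in SR1848 embryos and between 569 and 1579 CPM (median 789) in DMSO embryos (log2 fold change 0.98, SE 0.07, edgeR adjusted p = 1.0e-25). It was the most abundant subunit per length in both groups, and 36 of 80 SR1848 embryos were above every DMSO embryo, a rise that oocyte scaling ended (log2 fold change -0.0067). Its partner in assembly, Polr2j, lay between 104 and 858 CPM (median 365) in SR1848 embryos and between 188 and 619 CPM (median 341) in DMSO embryos and did not pass (log2 fold change 0.16, SE 0.09, edgeR adjusted p = 0.089), with -0.88 on the log2 scale under oocyte scaling. Dok4 overlaps Polr2c on the other strand and averaged 147 CPM over all embryos, against 1353 CPM for Polr2c, and the libraries are not stated to keep strand.

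The stalk of the polymerase is made by Polr2d and Polr2g, which went apart. Polr2d lay between 10.6 and 311 CPM (median 117) in SR1848 embryos and between 128 and 458 CPM (median 227) in DMSO embryos (log2 fold change -0.89, SE 0.13, edgeR adjusted p = 4.9e-10). Polr2g lay between 17.7 and 234 CPM (median 68.4) in SR1848 embryos and between 24.6 and 160.5 CPM (median 59) in DMSO embryos (log2 fold change 0.29, SE 0.13, edgeR adjusted p = 0.041), and its call was lost under 6 settings and its sign turned under oocyte scaling (-0.63). Polr2i, a zinc-binding subunit that helps the enzyme proofread, lay between 6.21 and 80.6 CPM (median 24.5) in SR1848 embryos and between 19.6 and 91.9 CPM (median 55) in DMSO embryos (log2 fold change -1.04). Tbcb overlaps Polr2i on the other strand. Polr2m, also called Gdown1, which binds the polymerase and competes with TFIIF, lay between 0 and 360.4 CPM (median 22.8) in SR1848 embryos and between 35.3 and 289.8 CPM (median 139) in DMSO embryos (log2 fold change -1.84, SE 0.24, edgeR adjusted p = 2.2e-11). Its coefficient of variation was 135% in SR1848 embryos, above that of each core subunit, and 44.5% in DMSO embryos.

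**Figure D2:**
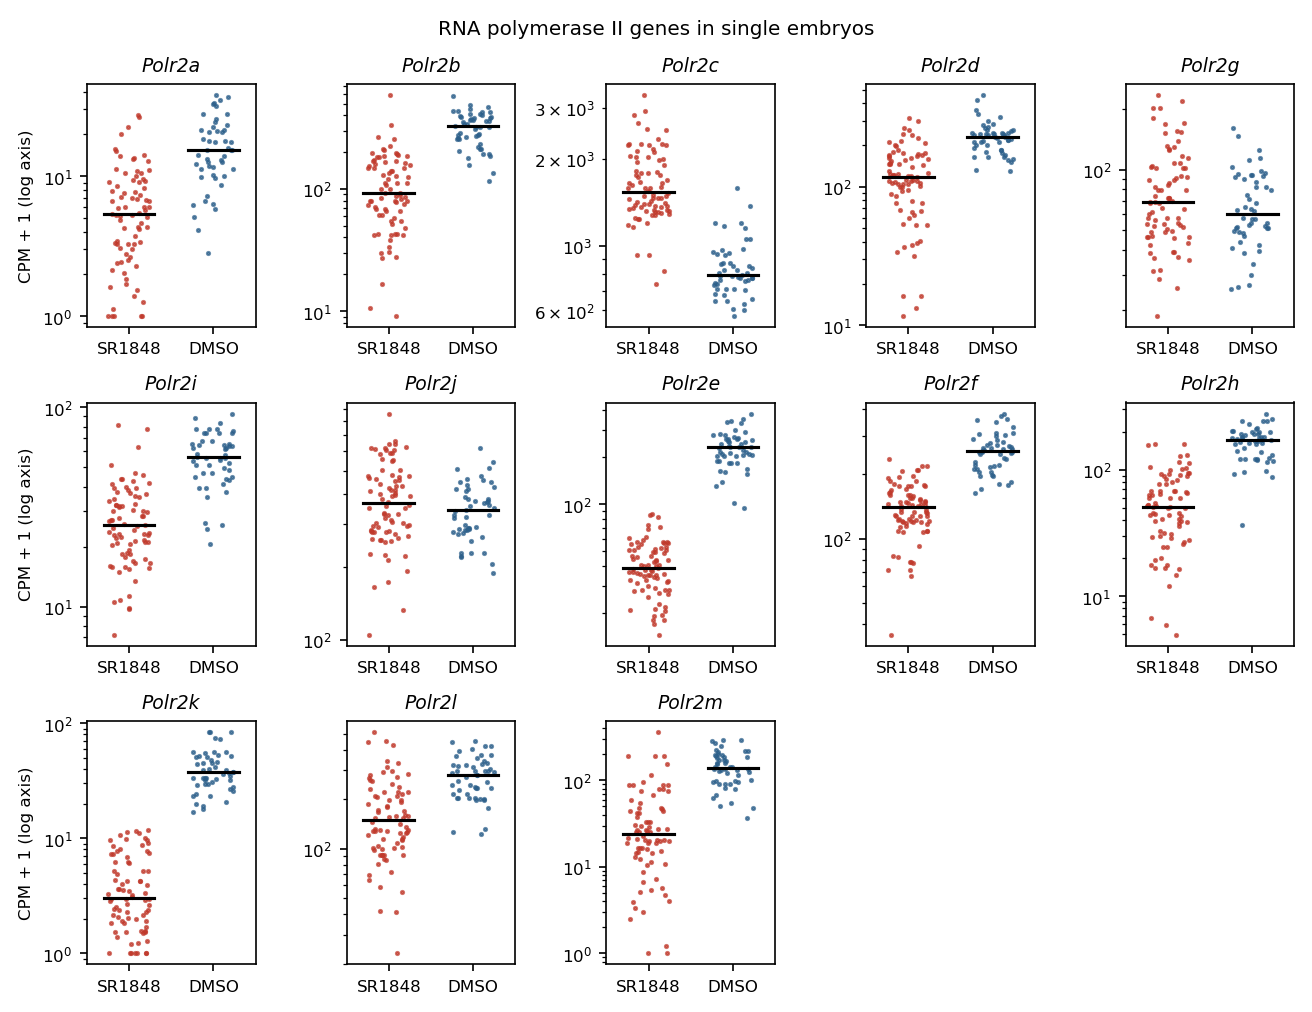
Expression of the 13 RNA polymerase II genes in single embryos; each point is 1 embryo (80 SR1848 in red, 50 DMSO in blue), bars are medians, and the y axis is CPM + 1 on a log scale with its own range in each panel. Polr2e and Polr2k have no overlap between groups, and Polr2c is higher in SR1848 embryos (median 1531 CPM with SR1848 and 789 CPM with DMSO), which oocyte scaling ended.

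The balance of messages within the enzyme differed between the groups, which library scaling does not touch. Of the summed TPM of the 12 core subunits, the 5 shared subunits made up 17.4 ± 3.54% in SR1848 embryos (8.38 to 26.9%) and 39.1 ± 4.20% in DMSO embryos (30.4 to 48.8%), with no overlap. Polr2c alone made up 45.7 ± 10.2% with SR1848 (24.7 to 78.1%) and 22.3 ± 5.0% with DMSO (13 to 40.5%), with overlap. The 12 subunits summed to 3792 ± 753 TPM with SR1848 and 4543 ± 444 TPM with DMSO, and without Polr2c to 2047 ± 510 TPM with SR1848 and 3532 ± 440 TPM with DMSO. Polr2a was the lowest subunit in both groups, at 2 TPM with SR1848 and 5.16 TPM with DMSO, and the highest subunit exceeded it 874-fold with SR1848 and 196-fold with DMSO in mean TPM.

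Mediator had 18 of 30 genes lower, 6 higher and 6 that did not pass. The shares of all genes tested, 36.5% lower and 45.6% higher, stand beside each module below too. Under oocyte scaling 25 of the 30 were lower and 4 higher, against 59.5% and 14.3% of all genes. Upper-quartile scaling called 16 lower and 10 higher, and 4261 of all 13222 genes lower and 6759 higher. The head, which binds the polymerase, had 6 of 7 lower: Med8 -3.02, Med6 -2.56, Med20 -1.85, Med11 -1.62, Med18 -0.83 and Med17 -0.67 on the log2 scale. Med8, which anchors the movable jaw of the head, lay between 0 and 37.2 CPM (median 5.15) in SR1848 embryos and between 20.5 and 116 CPM (median 59.5) in DMSO embryos (log2 fold change -3.02, SE 0.21, edgeR adjusted p = 8.8e-28). Med6, the most abundant head message per length in DMSO embryos, lay between 3.12 and 48.4 CPM (median 15.8) in SR1848 embryos and between 36.8 and 242 CPM (median 106) in DMSO embryos (log2 fold change -2.56, SE 0.13, edgeR adjusted p = 2.8e-39). For these genes 75 and 76 of 80 SR1848 embryos were below every DMSO embryo. Med22 lay between 23.9 and 288 CPM (median 85.4) in SR1848 embryos and between 15.8 and 99.4 CPM (median 48.2) in DMSO embryos (log2 fold change 0.89, SE 0.12, edgeR adjusted p = 6.2e-11) and rose, except under oocyte scaling, where its value was -0.15. Med20 overlaps the gene model Gm20517 on its own strand, so the division of counts between them is uncertain.

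In the middle module 7 of 9 genes fell, beside 36.5% of all genes tested. Med19 (ENSMUSG00000027080, chromosome 2, 84678402 to 84688215, plus strand) lay between 0 and 8.48 CPM (median 2.64) in SR1848 embryos and between 9.73 and 39 CPM (median 17.8) in DMSO embryos (log2 fold change -2.66, SE 0.19, edgeR adjusted p = 1.9e-27). The groups did not overlap, at a level where the overlapping genes Zdhhc5 and Tmx2 on the other strand averaged 54.8 and 12.5 CPM over all embryos. Med4 and Med7, subunits of the same module, had log2 fold changes of -2.05 and -2.00, and 76 and 72 of 80 SR1848 embryos were below every DMSO embryo. Med31, Med9, Med10 and Med26, which docks elongation factors, fell, with log2 fold changes between -1.14 and -0.70. Med10, the most abundant of the module per length, lay between 82.1 and 265 CPM (median 161) in SR1848 embryos and between 121 and 559 CPM (median 273) in DMSO embryos. Med1, which nuclear receptors bind, lay between 21.2 and 487 CPM (median 144) in SR1848 embryos and between 83.7 and 281 CPM (median 128) in DMSO embryos (log2 fold change 0.29, SE 0.12, edgeR adjusted p = 0.018). Its rise lost its call under 4 settings and turned to -0.90 under oocyte scaling. Med21 had a log2 fold change of -0.10 and did not pass.

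Med27, Med28, Med29 and Med30, which have been placed in the head or the tail, held the extremes of the complex. Med29 (ENSMUSG00000003444, chromosome 7, 28386146 to 28392708, minus strand) lay between 0 and 86.7 CPM (median 22.8) in SR1848 embryos and between 197 and 520.2 CPM (median 315) in DMSO embryos (log2 fold change -3.70, SE 0.15, edgeR adjusted p = 1.0e-48). Every SR1848 embryo was below every DMSO embryo. Med30 lay between 12.4 and 705 CPM (median 77) in SR1848 embryos and between 4.32 and 262 CPM (median 29.6) in DMSO embryos (log2 fold change 1.52, SE 0.22, edgeR adjusted p = 2.9e-10), with 8 of 80 SR1848 embryos above every DMSO embryo, and was higher under every setting tried. Med28, the most abundant Mediator message per length in DMSO embryos, lay between 92.9 and 1520.1 CPM (median 361) in SR1848 embryos and between 190.1 and 956 CPM (median 349.5) in DMSO embryos. Neither Med28 nor Med27 passed (log2 fold changes 0.10 and 0.04, and -1.02 and -1.11 under oocyte scaling).

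The tail, which activators bind, had 2 genes higher and 3 lower, and its summed message was higher, 548 ± 157 TPM in SR1848 embryos and 273 ± 60.6 TPM in DMSO embryos. Med25 lay between 41.9 and 425 CPM (median 163) in SR1848 embryos and between 24.8 and 129 CPM (median 60.2) in DMSO embryos (log2 fold change 1.49, SE 0.11, edgeR adjusted p = 2.6e-26). Med15 lay between 128 and 642 CPM (median 296) in SR1848 embryos and between 46.5 and 219 CPM (median 114) in DMSO embryos (log2 fold change 1.45, SE 0.10, edgeR adjusted p = 9.2e-29). Both rises held under every setting tried, oocyte scaling included, and 52 and 59 of 80 SR1848 embryos were above every DMSO embryo. Med16 lay between 0.188 and 88.9 CPM (median 6.53) in SR1848 embryos and between 2.72 and 108 CPM (median 34.5) in DMSO embryos (log2 fold change -1.64, SE 0.24, edgeR adjusted p = 9.5e-10). Med23 and Med24 had smaller falls, -0.47 and -0.33 on the log2 scale, that lost their calls under 1 and 5 settings. Med14, the scaffold that joins the modules, lay between 37.8 and 965 CPM (median 145) in SR1848 embryos and between 52.7 and 493 CPM (median 148) in DMSO embryos and did not pass (log2 fold change 0.29, SE 0.16, edgeR adjusted p = 0.084).

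The kinase module pairs Med12 or Med12l and Med13 or Med13l with Cdk8 or Cdk19 and cyclin C. Med13, which links the module to the core, lay between 14.8 and 118 CPM (median 56.6) in SR1848 embryos and between 29.3 and 282 CPM (median 132) in DMSO embryos (log2 fold change -1.17, SE 0.10, edgeR adjusted p = 9.9e-21), while Med13l lay between 14.4 and 152 CPM (median 66.1) in SR1848 embryos and between 30.8 and 128 CPM (median 69.9) in DMSO embryos (log2 fold change 0.04, SE 0.11, edgeR adjusted p = 0.74; -1.0 under oocyte scaling). Med12 lay between 0 and 21 CPM (median 3.22) in SR1848 embryos and between 0 and 26.1 CPM (median 6.48) in DMSO embryos and did not pass (log2 fold change -0.60, SE 0.30, edgeR adjusted p = 0.055). Med12l lay between 1.99 and 77.6 CPM (median 20.6) in SR1848 embryos and between 0 and 21.8 CPM (median 8.04) in DMSO embryos (log2 fold change 1.42, SE 0.17, edgeR adjusted p = 4.7e-13), higher under oocyte scaling too, but without a call when its most abundant transcript was tested alone.

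**Figure D3:**
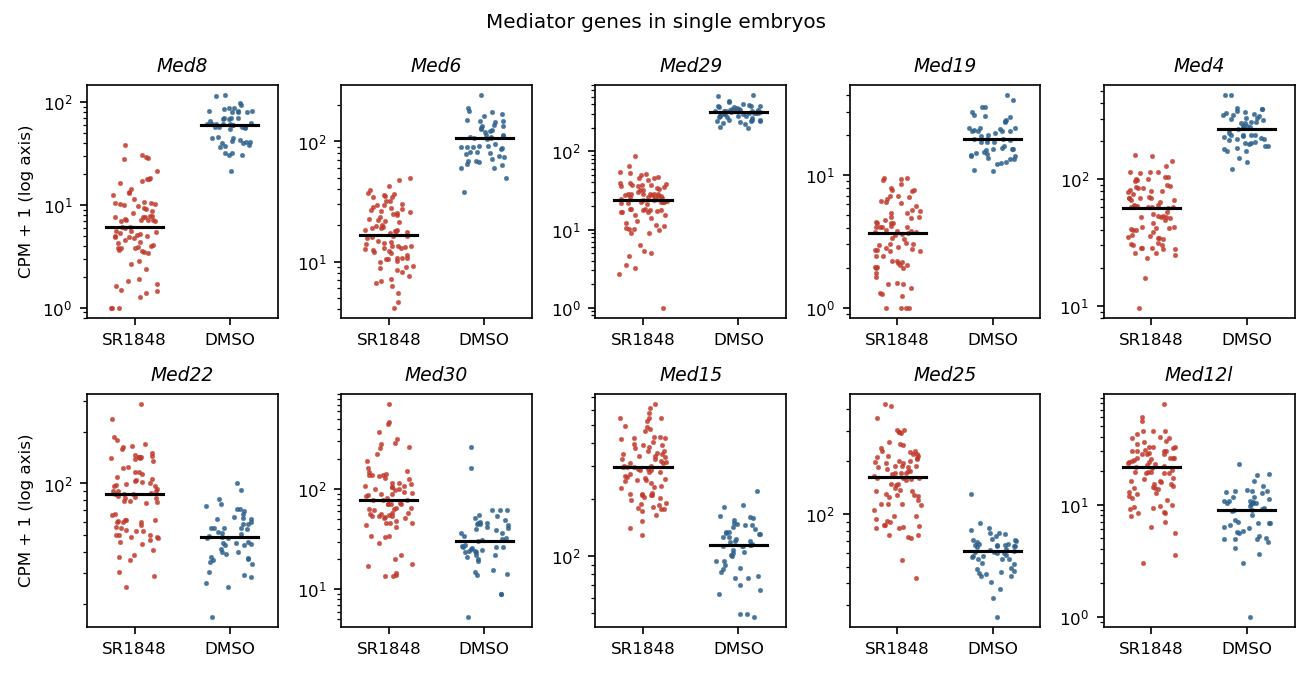
Expression of 10 Mediator genes in single embryos; points are embryos (80 SR1848 in red, 50 DMSO in blue), bars are medians, and each y axis is CPM + 1 on a log scale with its own range. The upper row shows genes that fell, with no overlap for Med29 and Med19, and the lower row genes that were higher with SR1848, of which Med22 turned to -0.15 on the log2 scale under oocyte scaling.

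TFIIA, which steadies TBP on DNA, had Gtf2a1 and Gtf2a2 higher, and both turned under oocyte scaling (-0.73 and -0.62). Gtf2a1 lay between 151 and 869.8 CPM (median 380.3) in SR1848 embryos and between 122 and 874 CPM (median 254) in DMSO embryos (log2 fold change 0.34, SE 0.11, edgeR adjusted p = 0.0037). Gtf2a2 lay between 3.95 and 168 CPM (median 70.7) in SR1848 embryos and between 22.4 and 101 CPM (median 49.1) in DMSO embryos (log2 fold change 0.51, SE 0.13, edgeR adjusted p = 2.8e-04). Gtf2a1l, the germ-cell form of the large subunit, lay between 0 and 8.47 CPM (median 1.57) in SR1848 embryos and between 0 and 14.1 CPM (median 2.14) in DMSO embryos (log2 fold change -0.69, SE 0.32, edgeR adjusted p = 0.039), and the call was lost under 4 settings. Gtf2b, the single polypeptide of TFIIB that bridges TBP and the polymerase, lay between 12.4 and 106 CPM (median 42.2) in SR1848 embryos and between 18.1 and 89.9 CPM (median 50) in DMSO embryos (log2 fold change -0.25, SE 0.11, edgeR adjusted p = 0.029), with the call lost under 6 settings.

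Both subunits of TFIIE and both of TFIIF fell. Gtf2e1 lay between 0.348 and 77.6 CPM (median 16.1) in SR1848 embryos and between 18.2 and 87.6 CPM (median 51.1) in DMSO embryos (log2 fold change -1.55, SE 0.16, edgeR adjusted p = 8.0e-16). Gtf2e2, its partner, lay between 12.5 and 113 CPM (median 40.5) in SR1848 embryos and between 33.9 and 168 CPM (median 84.7) in DMSO embryos (log2 fold change -0.93). Gtf2f2, of the factor that keeps the polymerase off other DNA, lay between 5.26 and 249 CPM (median 38) in SR1848 embryos and between 82.1 and 335 CPM (median 185) in DMSO embryos (log2 fold change -2.13, SE 0.14, edgeR adjusted p = 2.8e-29). Here 77 of 80 SR1848 embryos were below every DMSO embryo. Gtf2f1 lay between 4.34 and 362 CPM (median 116) in SR1848 embryos and between 70.3 and 307 CPM (median 187) in DMSO embryos (log2 fold change -0.58).

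TFIIH, which opens the promoter and also serves DNA repair, had the largest single fall. Gtf2h2, which controls the helicase of the complex (ENSMUSG00000021639, chromosome 13, 100460218 to 100492579, minus strand), lay between 0 and 20.2 CPM (median 4.93) in SR1848 embryos and between 24.8 and 199 CPM (median 91.5) in DMSO embryos (log2 fold change -3.94, SE 0.21, edgeR adjusted p = 8.0e-38). The groups did not overlap, and the mean was 15.3-fold lower with SR1848. Gtf2h5, the smallest subunit, had a log2 fold change of -2.63, with 79 of 80 SR1848 embryos below every DMSO embryo. Gtf2h1, the most abundant per length, lay between 65.1 and 299.8 CPM (median 157) in SR1848 embryos and between 145 and 586 CPM (median 319) in DMSO embryos (log2 fold change -1.04). Gtf2h4 lay between 3.02 and 191 CPM (median 44.6) in SR1848 embryos and between 11.9 and 91.7 CPM (median 28.4) in DMSO embryos (log2 fold change 0.77, SE 0.16, edgeR adjusted p = 1.4e-05), a rise that turned to -0.14 under oocyte scaling and to -0.01 for its most abundant transcript alone. Gtf2h3 had a log2 fold change of 0.01 and did not pass.

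Of 17 tested TAFs of TFIID, 9 fell, 6 were higher and 2 did not pass, while 36.5% of all genes tested were lower and 45.6% higher. Under oocyte scaling 14 were lower and none higher, against 59.5% and 14.3% of all genes. Upper-quartile scaling called 3 lower and 6 higher, and 4261 of all 13222 genes lower and 6759 higher. Taf8, needed to assemble the complex, lay between 0 and 25.1 CPM (median 9.23) in SR1848 embryos and between 23.2 and 108 CPM (median 64.7) in DMSO embryos (log2 fold change -2.72, SE 0.14, edgeR adjusted p = 2.2e-39), and 79 of 80 SR1848 embryos were below every DMSO embryo. Taf1, the largest subunit, had a log2 fold change of -2.03 and Taf7, which binds it and was the most abundant TAF of TFIID per length in DMSO embryos, of -1.81. Taf7 lay between 14.8 and 310.0 CPM (median 117) in SR1848 embryos and between 238 and 748 CPM (median 423) in DMSO embryos, with 74 of 80 SR1848 embryos below every DMSO embryo. Taf2, Taf4, Taf4b, Taf11, Taf13 and Taf15 had falls between -0.72 and -0.30 on the log2 scale, each without a call under at least 1 setting. Taf15, a protein associated with TFIID, averaged 1.37 CPM with SR1848 and 2.27 CPM with DMSO and could be tested under 8 alternative settings. Transcripts not annotated as coding held 88.9% of the Taf13 counts with SR1848 and 90.3% with DMSO. Taf3, which reads methylated histone H3, was higher (0.69) and turned to -0.30 under oocyte scaling.

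Of the 4 TAFs that TFIID shares with SAGA, Taf10, Taf9b and Taf12 were higher (log2 fold changes 1.31, 1.16 and 0.43) and Taf9 did not pass (-0.17). Together they summed to 353 ± 104 TPM with SR1848 and 250 ± 49.7 TPM with DMSO. Their rises rest on the scaling and the transcripts counted. Taf12 turned to -0.68 and Taf10 and Taf9b lost their calls under oocyte scaling, and Taf10 had a value of -0.08 when protein-coding transcripts alone were counted. Taf9 shares its locus and strand with Ak6, which averaged 558 CPM over all embryos against 28.8 CPM for Taf9, so its share of their counts is uncertain. Taf7l2 had a count in 6 of 80 SR1848 embryos and 1 of 50 DMSO embryos and was too low to test, as were the 3 pseudogenes Taf9-ps, Polr2d-ps1 and Polr2k-ps.

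Some symbols belong to other machineries. Taf1a, Taf1b, Taf1c and Taf1d, which with TBP form the selectivity factor of RNA polymerase I, all fell, Taf1a and Taf1b with log2 fold changes of -1.28 and -2.27. Taf1c lay between 0 and 16.5 CPM (median 0) in SR1848 embryos and between 0 and 32.4 CPM (median 6.74) in DMSO embryos (log2 fold change -2.93, SE 0.40, edgeR adjusted p = 7.4e-11). It had a count in 31 of 80 SR1848 embryos and 49 of 50 DMSO embryos. Taf1d, the most abundant of them per length, lay between 26.1 and 365 CPM (median 102) in SR1848 embryos and between 100.4 and 496 CPM (median 198) in DMSO embryos (log2 fold change -0.86), and it overlaps Cep295 on the other strand. Both SAGA TAFs fell, with log2 fold changes of -1.21 for Taf6l and -0.65 for Taf5l, Taf5l without a call for its most abundant transcript alone. Taf6l and Polr2g lie near each other on the minus strand of chromosome 19 (8774487 to 8786417 and 8793127 to 8798577). They had values of opposite sign with the scaling used here. The call of Polr2g was lost under 6 settings, and its value was -0.63 under oocyte scaling, where Taf6l was lower too. Of the TFII-I family, signal-responsive factors outside the core machinery, Gtf2i lay between 1.19 and 41.9 CPM (median 9.09) in SR1848 embryos and between 10.3 and 121 CPM (median 27.1) in DMSO embryos (log2 fold change -1.37, SE 0.18, edgeR adjusted p = 4.7e-12). Gtf2ird1 lay between 6.64 and 146 CPM (median 50.9) in SR1848 embryos and between 3.32 and 43.9 CPM (median 21.2) in DMSO embryos (log2 fold change 1.18, SE 0.16, edgeR adjusted p = 1.5e-11), without a call under oocyte scaling (0.05). Gtf2ird2 had a log2 fold change of -0.77 and did not pass.

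Some of these genes have a close paralogue, and the share of each in its pair, per length, does not depend on library scaling. Most pairs belong to 1 complex, but Taf5l and Taf6l are subunits of SAGA and Taf5 and Taf6 of TFIID. Of 11 pairs, 9 differed between groups by a two-sided permutation test, adjusted over the 11 pairs. With 100000 resamples no unadjusted p can be below 1e-05. Tbpl1, a TBP relative that does not bind TATA boxes, made up 75.2 ± 11.7% of the Tbp and Tbpl1 pair with SR1848 (n = 80) and 44.4 ± 7.63% with DMSO (n = 50; permutation adjusted p = 1.8e-05), and all 80 SR1848 embryos were above the DMSO median. Both messages fell, Tbp more: Tbp lay between 2.37 and 73.7 CPM (median 25.1) in SR1848 embryos and between 151 and 373 CPM (median 249.8) in DMSO embryos and Tbpl1 lay between 17.7 and 165 CPM (median 61.8) in SR1848 embryos and between 45.6 and 252 CPM (median 129) in DMSO embryos. Tbpl2, which stands in for TBP in mouse oocytes, made up 13.9 ± 15.2% of its pair with Tbp with SR1848 and 1.80 ± 1.58% with DMSO (permutation adjusted p = 1.8e-05, 64 of 80 SR1848 embryos above the DMSO median), and its own log2 fold change was 0.0029. Tbpl2 lay between 0 and 16.1 CPM (median 2.64) in SR1848 embryos and between 0 and 11.8 CPM (median 2.72) in DMSO embryos.

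In the kinase module, Med12l made up 71.9 ± 24.8% of its pair with SR1848 and 40.1 ± 23.7% with DMSO, and Med13l 55.2 ± 16.5% with SR1848 and 31.4 ± 12.8% with DMSO (permutation adjusted p = 1.8e-05 for each). SR1848 embryos above the DMSO median numbered 70 and 72 of 80. Taf9b made up 56.8 ± 21% of its pair with Taf9 with SR1848 and 37.1 ± 13.5% with DMSO (permutation adjusted p = 1.8e-05). This share rests on the counts of Taf9, which are uncertain because Ak6 overlaps it on the same strand. Taf9b lay between 8.52 and 303 CPM (median 95) in SR1848 embryos and between 8.95 and 156 CPM (median 41.4) in DMSO embryos and Taf9 lay between 1.18 and 79.2 CPM (median 24.6) in SR1848 embryos and between 12 and 63.7 CPM (median 28.5) in DMSO embryos. Taf7l, a germ-cell form of Taf7 on the X chromosome, made up 8.99 ± 13.3% with SR1848 and 1.44 ± 2.95% with DMSO (permutation adjusted p = 0.00018), with 49 of 80 SR1848 embryos above the DMSO median. Taf7l lay between 0 and 115 CPM (median 1.31) in SR1848 embryos and between 0 and 21.8 CPM (median 0.127) in DMSO embryos (log2 fold change 1.83, SE 0.56, edgeR adjusted p = 0.0018). It had any count in 49 of 80 SR1848 embryos and 25 of 50 DMSO embryos, and its rise had no call under oocyte scaling.

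In 3 other pairs the share of the named paralogue was lower. Taf5l made up 49.8 ± 16.9% of its pair with Taf5 with SR1848 and 64.6 ± 12.2% with DMSO (permutation adjusted p = 1.8e-05), and 65 of 80 SR1848 embryos were below the DMSO median. Taf5l lay between 2.23 and 102 CPM (median 33.9) in SR1848 embryos and between 14.8 and 118 CPM (median 50.6) in DMSO embryos and Taf5 lay between 6.44 and 165 CPM (median 36.2) in SR1848 embryos and between 13.2 and 76.3 CPM (median 30.7) in DMSO embryos. Taf6l made up 10.1 ± 12.2% with SR1848 and 17.8 ± 7.80% with DMSO (permutation adjusted p = 6.3e-05), with 69 of 80 SR1848 embryos below the DMSO median. Taf6l lay between 0 and 55.2 CPM (median 4.74) in SR1848 embryos and between 1.77 and 53.1 CPM (median 16.8) in DMSO embryos and Taf6 lay between 7 and 186 CPM (median 85.4) in SR1848 embryos and between 39.5 and 177 CPM (median 93.6) in DMSO embryos. Taf5 had a log2 fold change of 0.38 (-0.66 under oocyte scaling), and Taf6 of -0.18, which did not pass. Gtf2a1l made up 2.53 ± 2.97% with SR1848 and 4.79 ± 5.11% with DMSO (permutation adjusted p = 0.002), with 54 of 80 SR1848 embryos below the DMSO median. The share of Taf4b, a TAF of gonads and oocytes, was 68.2 ± 19.4% with SR1848 and 72.2 ± 14.1% with DMSO and did not pass (permutation adjusted p = 0.21). Taf4b lay between 0.663 and 867 CPM (median 131) in SR1848 embryos and between 42.5 and 1005 CPM (median 286) in DMSO embryos and Taf4 lay between 6.03 and 102 CPM (median 41.1) in SR1848 embryos and between 16 and 111 CPM (median 52.6) in DMSO embryos. Cdk19 made up 1.86 ± 2.23% of its pair with Cdk8 with SR1848 and 2.41 ± 1.63% with DMSO (permutation adjusted p = 0.15). Cdk19 lay between 0 and 9.20 CPM (median 1.16) in SR1848 embryos and between 0 and 11 CPM (median 4.84) in DMSO embryos and Cdk8 lay between 38.8 and 144 CPM (median 74.9) in SR1848 embryos and between 62.4 and 191 CPM (median 111) in DMSO embryos. The levels of Taf5l, Taf5, Taf6l, Taf6, Taf4b and Taf4 all overlapped between the groups. The shares of Taf4b and Cdk19 passed when protein-coding transcripts alone were counted or counts were not divided by length.

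**Figure D4:**
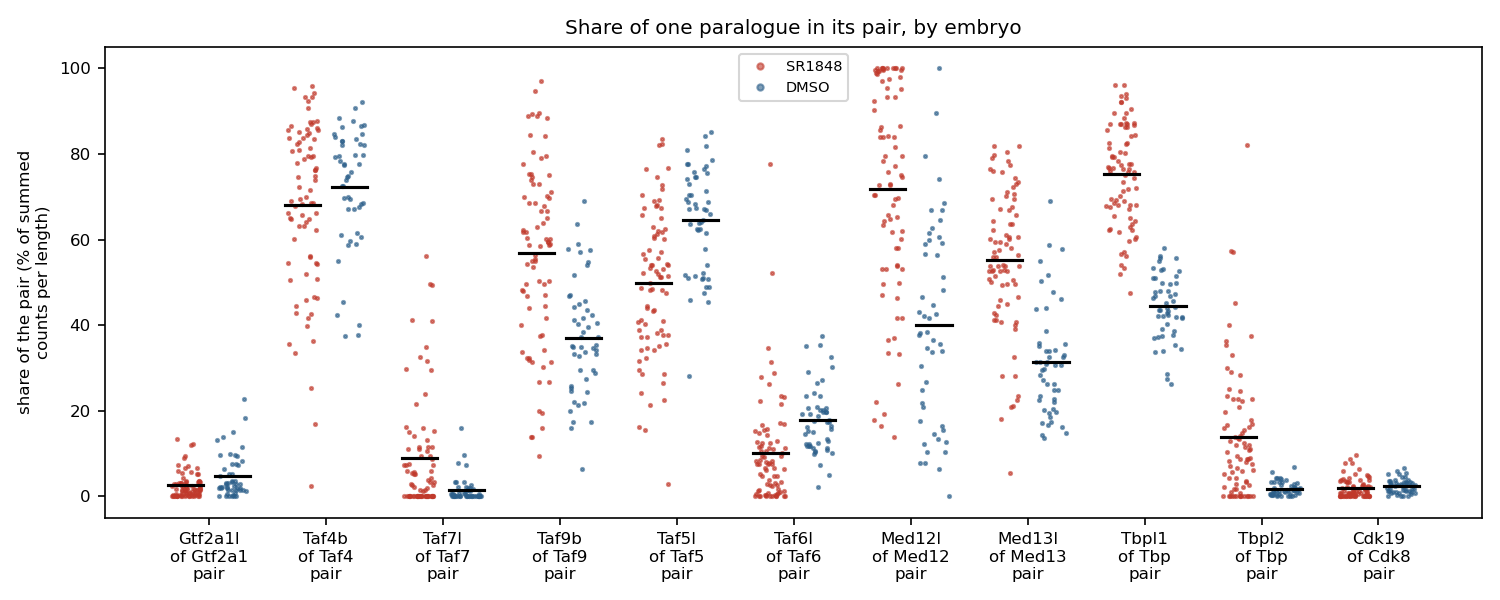
Share of the named paralogue in the length-corrected counts of its pair (y axis, %) in each embryo that has a count for the pair, SR1848 in red on the left and DMSO in blue on the right of each pair; bars are means. The share of Tbpl1 is higher in all 80 SR1848 embryos than the DMSO median, and Taf4b and Cdk19 are the pairs that did not pass.

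For some of these genes the transcripts moved apart, in a fit made with the TMM scaling alone. Among 154 protein-coding transcripts with a test, 82 fell and 41 rose. Among 64 transcripts of other types, 26 fell and 23 rose. Of all 25761 transcripts tested in the same fit, 35% fell and 38.5% rose. For Med14, the 6963-base protein-coding transcript fell (log2 fold change -1.15, 31.4 ± 25.3 CPM with SR1848 and 69.6 ± 37.5 CPM with DMSO), while a retained-intron transcript of 5129 bases rose (0.93, 89.9 ± 65.9 CPM with SR1848 and 47.3 ± 30.9 CPM with DMSO) and the gene as a whole did not pass. For Med27 the main coding transcript of 1254 bases fell by 0.52 on the log2 scale, and shorter coding transcripts of 732 and 489 bases rose by 1.44 and 0.85. For Gtf2h4 the main coding transcript of 1679 bases stood at 26.1 ± 25.1 CPM with SR1848 and 26.3 ± 13.8 CPM with DMSO, and a coding transcript of 1569 bases at 19.4 ± 19 CPM with SR1848 and 3.36 ± 5.96 CPM with DMSO. For Taf10, transcripts not annotated as coding held 91.2 ± 9.97% of the counts with SR1848 and 77.4 ± 20% with DMSO, and the coding transcript had a log2 value of -0.22 that did not pass. Such transcripts held a larger part with SR1848 in 43 of the 82 genes, with a median of 6.52% with SR1848 and 3.28% with DMSO. The rest of the 82 include genes with 0% in both groups, such as Med29, Polr2h and Taf7, which cannot differ. The same count over all genes was not made. Kallisto divides reads among transcripts that share exons, so these values are estimates.

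**Figure D5:**
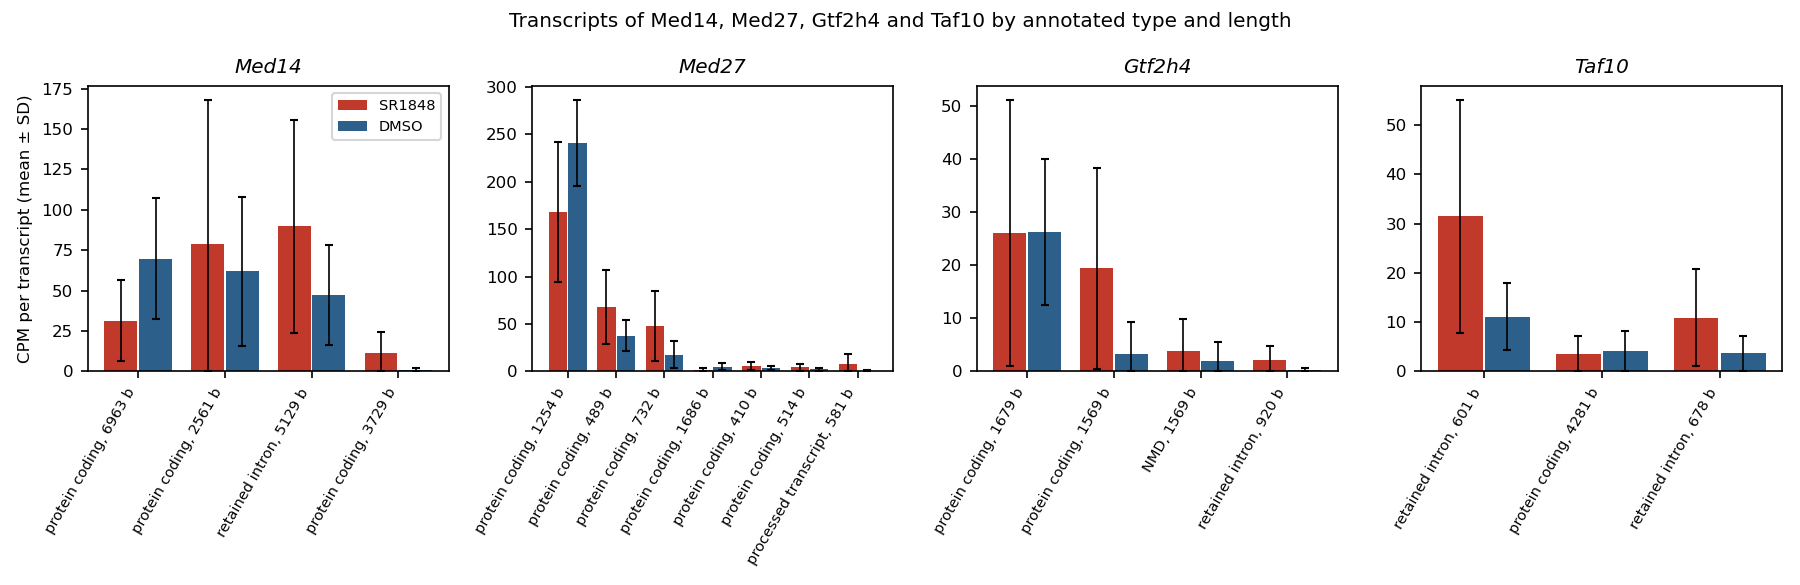
Mean CPM of each transcript of Med14, Med27, Gtf2h4 and Taf10 that averages at least 2 CPM in a group, SR1848 in red and DMSO in blue; error bars are SD over 80 and 50 embryos, drawn down to 0 where the SD exceeds the mean, and x labels give the annotated type and length in bases. The main coding transcripts of Med14 and Med27 are lower with SR1848 and the retained-intron transcripts of Med14 and Taf10 higher.

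Spread between embryos was wider with SR1848. The coefficient of variation in CPM was higher with SR1848 for 77 of the 82 genes, with a median of 57.7% with SR1848 and 36% with DMSO. Over all 13222 genes it was higher with SR1848 in 79.6%, with medians of 73.6% with SR1848 and 53% with DMSO. It was also higher for 10 of the 11 genes without a call on their means. The number of the 82 genes below their DMSO median lay between 51 and 67 (median 58) in SR1848 embryos and between 25 and 59 (median 42) in DMSO embryos, and 26 of 80 SR1848 embryos exceeded every DMSO embryo in that number. Each threshold is the median of the same DMSO embryos, so the middle of the DMSO numbers was set in advance. The number restates the calls per gene and is not separate from them, and it was not counted over all genes.

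Proteins that work with this machinery but carry other names were set beside it from general lists. Of 10 tested partners of initiation, 9 fell and none rose, beside 36.5% lower and 45.6% higher of all genes tested. Ccnc, cyclin C of the kinase module, lay between 0 and 25.2 CPM (median 5.71) in SR1848 embryos and between 49.6 and 222 CPM (median 92.6) in DMSO embryos (log2 fold change -3.89). Tbp had a log2 fold change of -3.18. Neither Ccnc nor Tbp overlapped between groups, a separation downward found in 1.69% of all genes tested. Cdk7, the kinase of TFIIH that phosphorylates the polymerase tail, had a log2 fold change of -2.65, and its partners Mnat1 and Ccnh of -2.14 and -1.96. Cdk8 fell by 0.55 on the log2 scale and Tbpl2 did not pass.

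Downstream of initiation, 19 of 30 genes for pausing and elongation were lower and 5 higher with the scaling used here. The shares of all genes tested were 36.5% lower and 45.6% higher. Nelfe and Nelfcd, of the complex that holds the polymerase near the start, had log2 fold changes of -3.15 and -3.14. Of the other subunits of that complex, Nelfb had a value of -0.57 and Nelfa of 0.28, which turned to -0.80 under oocyte scaling. Nelfe lay between 0 and 52 CPM (median 7.34) in SR1848 embryos and between 30.9 and 174 CPM (median 81.6) in DMSO embryos, with 77 of 80 SR1848 embryos below every DMSO embryo. Hexim1, which inhibits the pause-release kinase, lay between 0 and 190.0 CPM (median 32.6) in SR1848 embryos and between 4.96 and 64 CPM (median 24.2) in DMSO embryos (log2 fold change 0.89), and that kinase, Cdk9, had a value of 0.53. Under oocyte scaling 28 of the 30 were lower and none higher, against 59.5% and 14.3% of all genes. Hexim1 then had a value of 0.07 and Cdk9 of -0.31. Upper-quartile scaling called 10 higher and 17 lower, and 6759 of all 13222 genes higher and 4261 lower. Of 15 genes for polymerase assembly, tail phosphatases and capping, 10 fell and 4 were higher, against 36.5% and 45.6% of all genes tested. Rprd1b, which binds the polymerase tail, lay between 0 and 159.7 CPM (median 11.8) in SR1848 embryos and between 74.9 and 335 CPM (median 184) in DMSO embryos (log2 fold change -3.36). Gpn2, a GTPase of polymerase assembly, lay between 49 and 321 CPM (median 127) in SR1848 embryos and between 9.74 and 142 CPM (median 43.6) in DMSO embryos (1.68), and was higher under oocyte scaling too (0.69).

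The subunits that belong to the other polymerases fell in nearly every case. All 7 Polr1 genes fell, with a median log2 fold change of -1.77, and of 10 Polr3 genes 9 fell and Polr3gl was higher (-0.27, without a call, under oocyte scaling), with a median of -1.98. Among all genes tested, 36.5% were lower and 45.6% higher, with a median of 0.24. The 7 subunits of RNA polymerase II alone had a median of -0.89, and the 5 shared subunits of -1.53. The Polr1 genes summed to 511 ± 177 TPM with SR1848 and 1359 ± 244 TPM with DMSO, and the Polr3 genes to 149 ± 32.8 TPM with SR1848 and 701 ± 141 TPM with DMSO. The difference between the polymerases was not tested.

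The authors' deposited table, a DESeq2 comparison per transcript, gave an adjusted p for 402 transcripts of these genes. Lower values with SR1848 were called in the authors' deposited table for 157 of them (39.1%) and higher values for 60 (14.9%), beside 26.4% lower and 19.3% higher of all 66633 entries with an adjusted p. In the authors' deposited table the main transcript of Polr2c had a log2 fold change of 0.72 and that of Polr2g of -0.12, which did not pass there (adjusted p = 0.49). The value of Med29 in the authors' deposited table was -3.99 and that of Polr2e -2.83.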

How the data were processed

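RNA of single embryos was read by Smart-seq2 with oligo-dT priming, which captures polyadenylated messages, per the labels' protocols. Named in the submitters' processing notes, with no role or order, are DESeq2 1.32.0 in R 3.5.1, kallisto 0.46.1, Trim Galore 0.6.2, bcl2fastq and the builds mm10 and hg19. The authors deposited estimated counts per transcript and embryo, named as kallisto output per the file headers, a log2 table and a DESeq2 comparison per transcript. The log2 table as deposited equals log2 of the count over a factor per embryo plus 1 and was used for that check alone. In the authors' deposited comparison, the mean signal (base mean) averages normalized counts over all embryos, the log2 fold change compares SR1848 with DMSO, a test score stands beside each p-value and adjusted p, and the score was not used.

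Estimated counts (28.1% of values not whole) were summed per gene by the symbols in the authors' table, with 345 transcripts assigned by GENCODE M21, and rounded. Left out were 1726 transcripts without a gene, with 0.735% of all counts, and 5 entries of other kinds, with 0.0258%. Genes were filtered by edgeR 4.0.16 (filterByExpr), scaled by TMM and compared with edgeR's robust quasi-likelihood test in R 4.3.3, all 130 embryos in 1 fit, p-values being adjusted by Benjamini-Hochberg over all 13222 genes that passed (threshold 0.05). CPM are TMM-scaled and TPM use M21 transcript lengths. Transcripts had a fit of their own (25761 tested). The procedure was run on simulated counts with known changes, as many raised as lowered, and the same spread setting for every gene. That run does not cover data in which most genes are called, as here. Total counts per embryo were 2730852 to 8438537, and no pair of libraries in a group agreed within sampling noise (lowest chi-square per gene 21.9 for SR1848 and 20.1 for DMSO). Group membership came from the treatment label. Coordinates are GENCODE M21 (mm10) and promoters RefSeq GRCm38.p6, since the gene starts in the authors' table equalled those of M21 for 1068 of 35820 genes. Figures used matplotlib 3.10.9.

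The members, lists and tests were chosen with earlier results of these data known. Full levels are given for all polymerase II subunits, paralogue pairs and, in each complex, the largest rise, largest fall and most abundant member; other members are given by their fold change or its range. In other lists the largest rise and fall are named, and Cdk7, Mnat1, Ccnh, Cdk9, Nelfa, Nelfb, Nelfcd and Polr3gl were named after their values were seen. Alternatives were other scalings, filters, a depth covariate, leaving out shallow libraries, protein-coding transcripts alone, the most abundant transcript alone, DESeq2 1.42.0 and a replicate block.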

Additional observations from a re-analysis of the deposited data

How the results depend on the processing

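Of the 53 genes called lower, 42 kept their direction and call under every alternative in which they could be tested (10 for Taf1c, 13 for the other 41) and none changed sign; of the 18 called higher, Med15, Med25 and Med30 kept theirs. Scaling to oocyte transcripts left 4 of the 82 higher and 71 lower and turned the log2 fold change negative for Polr2c (-0.0067), Polr2g (-0.63), Polr2j (-0.88), Med1 (-0.90), Med13l (-1.0), Med14 (-0.74), Med22 (-0.15), Med27 (-1.11), Med28 (-1.02), Gtf2a1 (-0.73), Gtf2a2 (-0.62), Gtf2h3 (-1.08), Gtf2h4 (-0.14), Taf3 (-0.30), Taf5 (-0.66) and Taf12 (-0.68). Counting protein-coding transcripts alone turned Taf10 (-0.085), and testing the most abundant transcript alone turned Gtf2h4 (-0.011), Med14 (-1.15) and Med27 (-0.52). The paralogue shares of Taf4b and Cdk19 passed with protein-coding transcripts alone (differences of -6.57 and -1.01 percentage points) and with no length correction (-6.4 and -1.88). The cause was not tested. The sources used here do not say whether the numbers in the embryo names pair the groups. The correlation of same-numbered embryos had a median of 0.02 and passed 0.1 in 2 of 50 pairs. A low correlation cannot exclude a shared female, drop or plate. With the number as a replicate block, 16 were higher and 51 lower, against 17 and 51 in the same embryos without it. Of all 12542 genes tested there, 5176 were higher and 4917 lower with the block, and 5623 and 4640 without it. DESeq2 called 15 higher and 56 lower, and 5694 higher and 5133 lower of all 13222 genes. With 80 and 50 embryos no single embryo was left out in turn; leaving out the 1 shallow SR1848 embryo gave 18 higher and 53 lower. The low counts of Polr2a, Med12, Med19, Taf1c, Taf7l, Taf15 and Gtf2a1l limit the precision of their values per embryo.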
